A study of Mus musculus with 14 samples.

Results

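The genes described here are 10 members of the NF-kB system: subunits of the transcription factor (Nfkb1, Nfkb2, Rela and Relb) and genes that it switches on, among them its own inhibitors (Nfkbia and Tnfaip3), genes of survival signalling (Birc3 and Traf1) and adhesion molecules (Icam1 and Vcam1). Their probes were taken by gene symbol, whatever their values, but the genes were chosen with earlier results of these data known. Of the 10 genes, 9 have a probe on the array, 11 probes in all out of 33600 probes that name 13661 genes. A probe with values in the samples used was found for all 9, and 10 probes were tested, since 1 of the 3 Vcam1 probes has no value in these samples. No probe used here carries the symbol Nfkb1, so that gene was not analysed. The cells were astrocytes cultured from the brains of newborn mice and passaged once, labelled as cortical in the sample titles although the protocol speaks of whole brain. One group, called null below, comes from mice lacking connexin43 (Cx43, encoded by Gja1), the main gap junction protein of astrocytes (4 samples). A second, called siRNA below, comes from wild-type astrocytes transfected with siRNA (small interfering RNA) to Cx43, for 36 h per the series' design text and for 48 h before protein was taken per the protocol (4 samples). The third is wild-type astrocytes, of which replicates 3, 4 and 6 were used (3 samples). The mouse strain is not given in the labels, no group with a control siRNA is listed, and transfection and its medium belong to the siRNA group alone, so that the effect of losing Cx43 and that of transfection cannot be told apart there.

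NF-kB is a family of dimeric transcription factors held in the cytoplasm by inhibitor proteins of the IkB family. Signals from cytokine receptors and Toll-like receptors activate IkB kinases, the inhibitor is degraded, and the dimer enters the nucleus, in the canonical branch mostly with RelA and in the slower non-canonical branch with RelB and the product of Nfkb2. Among the first genes switched on are Nfkbia and Tnfaip3, whose products end the signal, and in astrocytes the pathway is known for chemokines, cytokines and the adhesion molecules that bind leukocytes.

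Several of the members are themselves known targets of NF-kB, so the promoter windows at hand were searched for letters that NF-kB dimers bind. RefSeq promoter windows of the GRCm38.p6 build, from 250 bases before to 50 bases after a transcription start, were found for 7 member genes, 10 windows in all. None was found for Nfkb1, Relb or Vcam1, so these genes were not searched. One motif searched was GGG, any 2 bases and then TTTCC, and the other was GGAANTTCC with N for any base, both on either strand. The motifs were chosen with the matches known, so the counts of matches are no test of enrichment, and the motifs overlap at Nfkbia. Of the 10 windows 6 held a match, from 4 genes, with 2 overlapping Nfkb2 windows sharing 1 site, while 1.63% of 32851 windows of all genes held the first motif, 0.928% the second and 2.46% either. One window with a match is printed below for each of the 4 genes, 5′ to 3′ along the gene's strand and with the matches in capitals, to show where the letters lie. Nfkb2 is on chromosome 19 at chr19:46304487-46304786, plus strand. Nfkbia is on chromosome 12 at chr12:55492598-55492897, minus strand. Tnfaip3 is on chromosome 10 at chr10:19015361-19015660, minus strand. Icam1 is on chromosome 9 at chr9:21015690-21015989, plus strand.
Nfkb2: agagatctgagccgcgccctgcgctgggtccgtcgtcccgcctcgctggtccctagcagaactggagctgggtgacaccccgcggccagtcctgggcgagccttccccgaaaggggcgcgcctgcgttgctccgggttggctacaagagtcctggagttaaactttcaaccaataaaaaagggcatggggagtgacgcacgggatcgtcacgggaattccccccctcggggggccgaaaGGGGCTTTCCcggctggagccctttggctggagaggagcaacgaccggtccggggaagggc
Nfkbia: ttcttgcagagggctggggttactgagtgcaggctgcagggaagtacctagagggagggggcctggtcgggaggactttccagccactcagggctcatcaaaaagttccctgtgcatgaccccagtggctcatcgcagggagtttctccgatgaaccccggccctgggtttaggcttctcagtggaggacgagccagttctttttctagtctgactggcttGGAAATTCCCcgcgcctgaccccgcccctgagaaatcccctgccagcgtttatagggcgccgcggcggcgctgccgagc
Tnfaip3: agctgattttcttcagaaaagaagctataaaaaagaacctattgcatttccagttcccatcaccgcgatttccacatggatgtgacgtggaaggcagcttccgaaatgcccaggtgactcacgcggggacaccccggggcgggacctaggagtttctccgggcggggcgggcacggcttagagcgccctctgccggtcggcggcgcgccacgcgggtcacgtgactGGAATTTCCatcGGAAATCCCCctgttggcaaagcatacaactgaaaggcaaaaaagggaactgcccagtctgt
Icam1: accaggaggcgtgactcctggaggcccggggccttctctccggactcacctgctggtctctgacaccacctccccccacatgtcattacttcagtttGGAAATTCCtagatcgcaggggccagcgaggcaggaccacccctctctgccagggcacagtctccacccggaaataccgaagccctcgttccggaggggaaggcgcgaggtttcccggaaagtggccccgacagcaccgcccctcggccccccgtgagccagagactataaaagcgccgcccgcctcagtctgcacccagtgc
The match began 11 bases before the start in the Nfkb2 window shown and 29 bases before it in Nfkbia. In Tnfaip3 the matches began 24 and 12 bases before the start, and in Icam1 the match lay further away, at 153 bases. The windows of Rela, Birc3 and Traf1 did not hold these letters. Only the motifs named above were searched, so lower-case letters may hold other forms of an NF-kB site. A match is a run of letters, and binding was not measured here.

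The files hold 1 log2 value per probe and sample, with the median of each array at 0, so a value says how far a probe stood above or below the typical probe of its array, and levels of different probes cannot be compared. Between 17849 and 26826 probes had a value in the 11 samples used. Wild-type replicates 1, 2 and 5 were left out by the rule that set the samples for these genes. Across probes, their correlation with the average of the 11 samples used was 0.37, 0.38 and -0.020. For each of the 11 samples, the correlation with the average of the others among them was 0.894 to 0.948. Only samples that were kept thus enter these averages. Null and siRNA samples fall into replicates 1 and 2 and replicates 3 and 4, which differ widely, and wild type has replicates 3 and above only. This difference, with the dye, was therefore a term in the fit of the 11 samples, from which values come unless another fit is named. The series' design text speaks of 4 independent cultures per group, but more wild-type samples than that are listed. The labels do not say which culture a sample came from, so p-values measure only how far these samples vary, and that may be technical variation. Consecutive samples of a group may share an array, and a fit with such pairs as a random block (called the pair fit below) is given beside the results it changes.

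Gja1, the gene removed or targeted, stood at -1.17, -1.06, 2.82 and 3.03 in null, 1.93, 2.14, 5.47 and 5.70 in siRNA, and 6.08, 7.53 and 4.82 in wild-type samples. Null lay below wild type in every sample, by a log2 difference of -3.31 ± 0.58 (SE, limma adjusted p = 0.04, 0.253 in the pair fit), and the call held in 3 of the 11 fits that leave out 1 sample. siRNA minus wild type was -0.41 ± 0.58 (adjusted p = 0.732), and siRNA replicates 3 and 4 lay within the wild-type range. siRNA replicates 1 and 2 lay below that range. Null replicates 1 and 2 also lay below null replicates 3 and 4, and no wild-type sample used belongs to that replicate set. The array thus did not show the knockdown in the siRNA samples, and the difference was not called in any of the 12 alternative settings either. Where the probe lies relative to the deletion is unknown here. Defining markers of astrocytes were measured, with the mean of 9 markers at 2.66 to 3.61 in null, 1.69 to 3.28 in siRNA and 3.45 to 3.92 in wild-type samples. Gja1 itself, deleted in null and targeted in siRNA samples, is among these 9, so its own change enters the means. Gfap had no value and Gjb6 was not measured. Markers of microglia, which also use NF-kB, were well above the array median too, with the mean of 14 markers at 2.11 to 4.47 in null, 1.66 to 2.18 in siRNA and 3.05 to 3.56 in wild-type samples. In siRNA samples 7 of 15 tested microglia markers fell against wild type and 0 rose, and 3 of 11 fibroblast and mural cell markers and 1 of 5 endothelial markers fell, where 1.96% of all probes were called lower. In the pair fit 4 of the 7 microglia markers were still called and none of the other 4 (Fbln2, Dcn, Col3a1 and Flt1, adjusted p = 0.113 to 0.158). Of 12 tested astrocyte markers, Aldh1l1 was called higher and Aldoc lower in siRNA samples against wild type. Neither passed in the pair fit (adjusted p = 0.192 and 0.144). Of all probes 5.42% were called higher. In bulk samples, fewer cells of a type and less RNA per cell cannot be told apart.

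siRNA-treated astrocytes differed from wild type in Vcam1 and Relb, while Rela, the canonical subunit, Icam1 and the inhibitor Nfkbia did not pass the test. Vcam1 stood 17.6-fold higher and Relb 4.15-fold higher. In total 3 of the 10 member probes were called at an adjusted p under 0.05, all higher, and 2 of them belong to Vcam1. Over all 20352 probes tested, 7.38% were called, 5.42% as higher and 1.96% as lower. In the pair fit 1 member probe was called, Vcam1 probe 4808, where 1.23% of all probes were, and within replicates 3 and above alone 4 of 9 were, where 9.23% of all probes were. The median log2 difference of the member probes was 1.34, against 0.13 over all probes tested. In null astrocytes 0 of the 10 member probes were called against wild type by limma, 2 had an unadjusted p under 0.05, and the background was 0.589% of 20369 probes (0.471% higher and 0.118% lower). No member had null and wild-type samples without overlap, which occurred in 8.32% of all probes in the higher direction and 4.23% in the lower. The median of the members there was 0.51, against 0.27 over all probes. Both comparisons use the same wild-type samples.

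**Figure D1:**
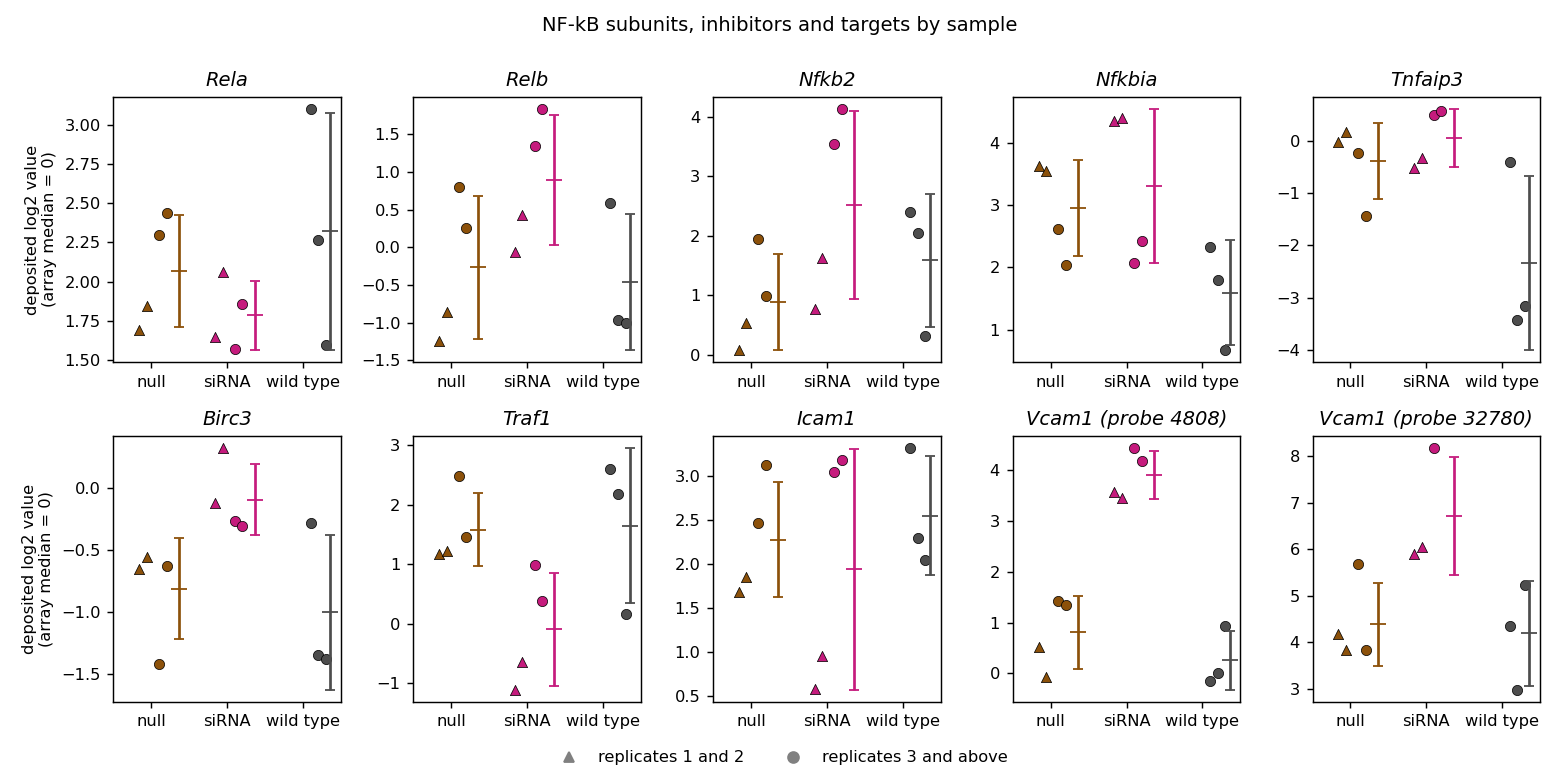
Deposited log2 values (array median at 0) of the 10 member probes with values, in null, siRNA and wild-type samples from left to right; triangles are replicates 1 and 2, circles replicates 3 and above, and bars give the mean ± SD of each group. Vcam1 probe 4808 lies at 3.46 to 4.44 in siRNA samples, above every null and wild-type sample, and most other members overlap between groups.

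Among the subunits, Rela encodes RelA, the main activating subunit of the canonical branch. Its values were 1.69, 1.84, 2.30 and 2.44 in null, 1.65, 2.06, 1.57 and 1.86 in siRNA, and 3.10, 2.27 and 1.59 in wild-type samples. The 3 groups overlap, and wild-type replicate 3 is the highest sample. Neither siRNA minus wild type, at -0.44 ± 0.45 (SE, adjusted p = 0.616), nor null minus wild type, at -0.16 ± 0.45 (adjusted p = 0.907), passed the test.

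Relb encodes RelB, the activating subunit of the non-canonical branch and itself a target of RelA. It stood at -0.06, 0.43, 1.35 and 1.84 in siRNA samples and at 0.58, -0.96 and -1.01 in wild-type samples. siRNA samples 3 and 4 exceeded every wild-type sample, while siRNA samples 1 and 2 lay below wild-type replicate 3, so the groups overlap. The fitted difference was 2.05 ± 0.48 (SE, adjusted p = 0.0251), and within replicates 3 and above alone it was 1.94 (adjusted p = 0.0311). The call was lost in the pair fit (adjusted p = 0.14) and without wild-type replicate 4 (0.0814), siRNA replicate 3 (0.0563) or siRNA replicate 4 (0.169). In null samples Relb stood at -1.24, -0.86, 0.79 and 0.25, overlapping with wild type, and null minus wild type was 0.90 ± 0.48 (adjusted p = 0.365).

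Nfkb2 encodes the partner of RelB in the non-canonical branch and is a known target of NF-kB. Its values were 0.77, 1.63, 3.54 and 4.13 in siRNA samples and 2.41, 2.04 and 0.31 in wild-type samples. The 2 highest samples of all are siRNA replicates 3 and 4, and siRNA replicates 1 and 2 lie inside the wild-type range. siRNA minus wild type was 1.86 ± 0.62 (SE, adjusted p = 0.0911), short of the threshold. Within replicates 3 and above alone it was 2.15 with an adjusted p of 0.0329. Null samples, at 0.07, 0.53, 1.95 and 0.98, were not separated from wild type (0.23 ± 0.62, adjusted p = 0.902).

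Of the inhibitors, Nfkbia encodes IkB-alpha, which returns NF-kB to the cytoplasm. It had 3.63, 3.54, 2.61 and 2.04 in null, 4.34, 4.40, 2.07 and 2.42 in siRNA, and 2.32, 1.79 and 0.67 in wild-type samples. All values in replicates 1 and 2 exceed those in replicates 3 and above, and within replicates 3 and above the groups overlap. With that difference as a term, siRNA minus wild type was 0.81 ± 0.47 (SE, adjusted p = 0.327) and null minus wild type 0.46 ± 0.47 (adjusted p = 0.677).

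Tnfaip3 encodes A20, a ubiquitin-editing enzyme that shuts off signalling upstream of the IkB kinases. It stood at -0.01, 0.19, -0.23 and -1.43 in null, -0.51, -0.32, 0.50 and 0.59 in siRNA, and -0.40, -3.43 and -3.17 in wild-type samples. Wild-type replicates 4 and 6 are far below all others, and wild-type replicate 3 is among the null and siRNA samples. siRNA minus wild type was 2.27 ± 0.69 (SE, adjusted p = 0.0667) and null minus wild type 1.83 ± 0.69 (adjusted p = 0.2), and neither passed. Within replicates 3 and above alone, siRNA minus wild type was 2.63 (adjusted p = 0.012).

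Birc3 encodes an inhibitor of apoptosis that also acts as a ubiquitin ligase in the pathway. Its values were -0.65, -0.55, -1.42 and -0.63 in null, -0.12, 0.33, -0.27 and -0.31 in siRNA, and -0.28, -1.35 and -1.38 in wild-type samples. siRNA samples are the higher ones, but wild-type replicate 3 reaches them. Neither siRNA minus wild type (0.70 ± 0.43, SE, adjusted p = 0.361) nor null minus wild type (-0.016 ± 0.43, adjusted p = 0.99) passed.

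Traf1 encodes an adaptor of the tumour necrosis factor receptors, which is induced by NF-kB. It was the 1 member besides Rela with a negative difference for siRNA: -1.11, -0.65, 0.99 and 0.38 in siRNA samples and 2.60, 2.18 and 0.16 in wild-type samples, which overlap. The difference was -1.26 ± 0.57 (SE, adjusted p = 0.21). Null samples, at 1.17, 1.22, 2.48 and 1.45, lay within the wild-type range (0.42 ± 0.57, adjusted p = 0.774).

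Of the adhesion molecules, Icam1 encodes a ligand of leukocyte integrins and is a standard target of RelA. It had 1.68, 1.85, 2.46 and 3.12 in null, 0.58, 0.95, 3.05 and 3.17 in siRNA, and 3.32, 2.29 and 2.04 in wild-type samples. The groups overlap, and the lowest values are those of siRNA replicates 1 and 2. siRNA minus wild type was 0.22 ± 0.49 (SE, adjusted p = 0.837) and null minus wild type 0.56 ± 0.49 (adjusted p = 0.614). The first turned negative under 4 other settings, given with the processing.

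Vcam1 encodes the receptor for the integrin VLA-4 on leukocytes, and cytokine-treated astrocytes and endothelium are known to make it. Its probe 4808 stood at 3.57, 3.46, 4.44 and 4.18 in siRNA samples and at -0.15, 0.01 and 0.93 in wild-type samples. Every siRNA sample was above every wild-type sample. The difference was 4.14 ± 0.41 (SE, adjusted p = 0.000376), and it was called in all 12 alternative settings and all 11 fits that leave out 1 sample (adjusted p at most 0.0061). Null samples, at 0.52, -0.06, 1.43 and 1.36, overlap with wild type, with a difference of 1.03 ± 0.41 (adjusted p = 0.222).

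A second Vcam1 probe, 32780, gave 5.90, 6.05 and 8.18 in siRNA samples, with no value in replicate 4, and 4.35, 2.98 and 5.23 in wild-type samples. The groups did not overlap here either. Only the Vcam1 probes among the members had no overlap between siRNA and wild type, which occurred in 6.58% of all probes tested in the higher direction and 10.8% in the lower. The difference was 3.11 ± 0.75 (SE, adjusted p = 0.0318, 8.62-fold), and it was called in 4 of 11 fits that leave out 1 sample and not in the pair fit (adjusted p = 0.116). The samples whose removal ended the call were siRNA replicates 2, 3 and 4, null replicates 1 and 3, and wild-type replicates 3 and 4. Null samples stood at 4.18, 3.83, 5.69 and 3.84 (0.69 ± 0.65, adjusted p = 0.651). No endothelial or microglia marker was called higher in siRNA samples (0 of 5 and 0 of 15), and their part in the Vcam1 values was not tested.

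Wild-type replicates 1 and 2 can be set beside these values after their columns are realigned by grid row, at places chosen to match the other samples. Vcam1 probe 4808 stood at 3.57 and 3.46 in siRNA replicates 1 and 2, against 0.040 and 0.46 in these wild-type samples, and probe 32780 at 5.90 and 6.05 against 3.52 and 3.31. Relb stood at -0.06 and 0.43 in siRNA against -1.87 and -1.06 in wild type, and Nfkb2 at 0.77 and 1.63 against -1.95 and -0.77. With these samples in the fit, siRNA minus wild type was 3.72 and 2.96 for the Vcam1 probes, 1.87 for Relb (adjusted p = 0.0179) and 2.35 for Nfkb2 (adjusted p = 0.0241), and 4 member probes were called where 4.51% of all probes were. For Tnfaip3 the siRNA values of -0.51 and -0.32 lay between the realigned wild-type values of -0.81 and -0.094, and the difference was 1.51 (adjusted p = 0.189). Traf1 stood at -1.11 and -0.65 in siRNA, below 1.73 and 1.94 in realigned wild type, and the difference was -1.80 (adjusted p = 0.0555). Icam1 stood at 0.58 and 0.95 in siRNA, below 1.26 and 2.12, with a difference of -0.12 (adjusted p = 0.904). Nfkbia stood at 4.34 and 4.40 in siRNA, above 1.81 and 2.06, and its difference of 1.44 did not pass (adjusted p = 0.0724). Rela (-0.24) and Birc3 (0.45) did not pass either (adjusted p = 0.759 and 0.512).

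**Figure D2:**
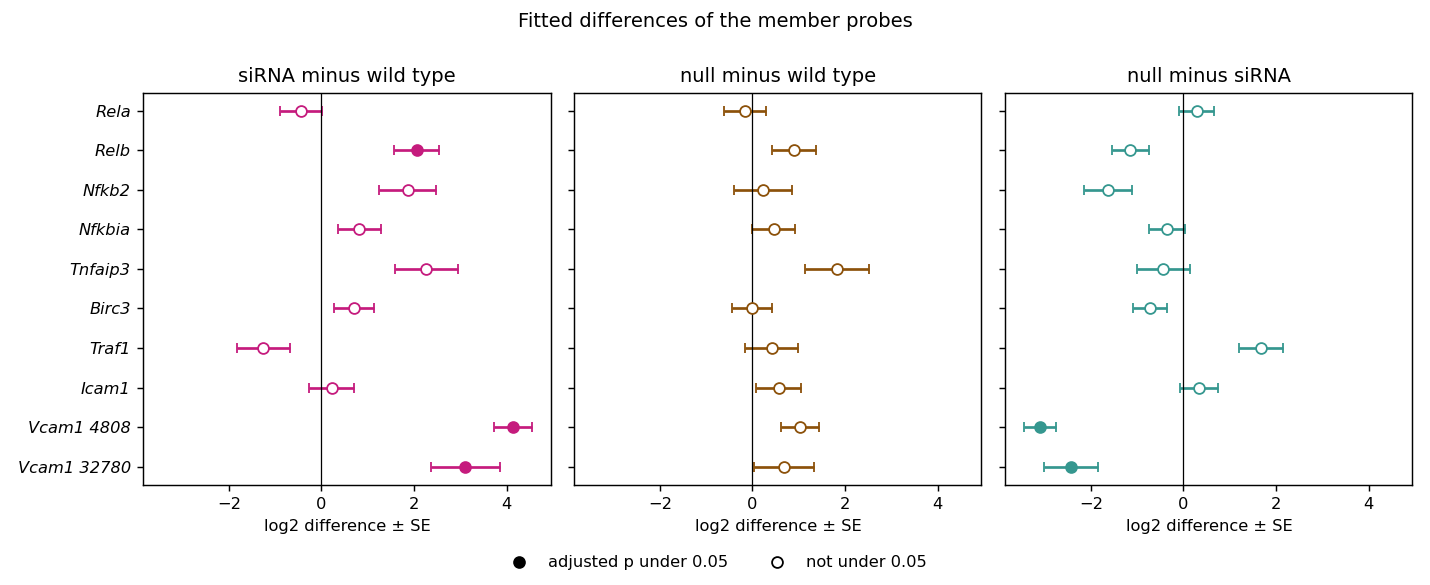
Fitted log2 differences ± SE of the member probes for siRNA minus wild type, null minus wild type and null minus siRNA; filled points have an adjusted p under 0.05. The Vcam1 probes stand at 4.14 and 3.11 for siRNA minus wild type, and no point is filled for null minus wild type.

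Null astrocytes, with Gja1 deleted, and siRNA astrocytes, with Gja1 targeted, were compared directly. Vcam1 was lower in null than in siRNA samples at both probes, by -3.10 ± 0.34 (SE, adjusted p = 0.000677) and -2.42 ± 0.58 (adjusted p = 0.0359), and these 2 of 10 member probes were the ones called, where 5.87% of 20375 probes were (3.61% higher and 2.27% lower). The median of the members was -0.58, against 0.11 over all probes tested. Nfkb2, at 0.07 to 1.95 in null and 0.77 to 4.13 in siRNA samples, differed by -1.63 ± 0.52 (adjusted p = 0.0814), and Relb by -1.15 ± 0.40 (adjusted p = 0.104). Traf1 lay higher in every null sample, at 1.17 to 2.48 against -1.11 to 0.99 in siRNA samples, but the difference of 1.68 ± 0.48 did not pass (adjusted p = 0.0592). Birc3 lay lower in every null sample (-0.72 ± 0.36, adjusted p = 0.237). Groups without overlap made up 11.6% of all probes in the higher direction and 4.75% in the lower. Icam1, Nfkbia, Tnfaip3 and Rela had adjusted p over 0.6.

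The replicate numbers were taken to pair null with siRNA samples, since same-numbered samples deviated together in all 4 pairs, with a correlation of 0.565 to 0.647. Differently numbered samples of the same replicate set came close to this, at 0.399 to 0.598. Same-numbered samples also carry the same dye, so these correlations cannot tell pairing from a shared dye. With the replicate number as a block, Nfkb2 (adjusted p = 0.0237) and Traf1 (adjusted p = 0.00974) were called as well, so that 4 of 10 member probes passed where 11.7% of all probes did. In the pair fit 1 of them, Vcam1 probe 4808, passed (adjusted p = 0.0082), where 0.628% of all probes did. The second Vcam1 probe was lost there (adjusted p = 0.158) and in 7 of the 11 fits that leave out 1 sample, each of null replicates 1, 2, 3 and 4 and siRNA replicates 2, 3 and 4.

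Across replicates, 5 member probes differed between replicates 1 and 2 and replicates 3 and above in the fit. Nfkbia was higher in replicates 1 and 2, by 1.70 ± 0.39 (SE, adjusted p = 0.00383). Nfkb2 (-1.90), Icam1 (-1.68), Relb (-1.49) and Vcam1 probe 4808 (-0.98) were lower there. As 44.6% of all probes passed this term, the share is near that of the array as a whole and is no result about the members. Whether null minus siRNA differed between replicates 1 and 2 and replicates 3 and 4 was tested in its own model, where 0 of 10 member probes were called and 18.1% of 16658 probes were. At an unadjusted p under 0.05, Icam1 (1.32 ± 0.37, adjusted p = 0.052) and Tnfaip3 (1.88 ± 0.56, adjusted p = 0.0596) were the 2 members, and Nfkb2 (1.47 ± 0.63, unadjusted p = 0.0536) lay just above that.

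The other genes of the pathway were taken as 6 lists, 1 probe a gene, and described by counts, to be read against the 7.38% of all probes called for siRNA against wild type. In siRNA against wild type, 2 of 4 tested genes of the subunits and IkB family were called, both higher, with a median log2 difference of 1.54 against 0.13 over all probes. Nfkbie, which encodes IkB-epsilon, stood at -1.92, -1.47, 1.38 and 1.54 in siRNA and at -0.74 and -1.71 in wild-type samples (2.68 ± 0.57, SE, adjusted p = 0.0261). Nfkbiz, an atypical IkB that acts in the nucleus, stood at 0.41 to 3.16 in siRNA and -0.48 to 1.45 in wild-type samples (2.28 ± 0.55, adjusted p = 0.029). Both overlap between groups, their highest values come from siRNA replicates 3 and 4, and neither passed in the pair fit (adjusted p = 0.12 and 0.126).

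Among 23 IkB kinases and signalling adaptors 1 was called, a share no higher than that of all probes. It was Map3k7, the kinase TAK1 that activates the IkB kinases (1.72 ± 0.46, SE, adjusted p = 0.0444). Its other probe was at 1.39 and did not pass (adjusted p = 0.194), and the list's median was 0.31. Of 12 ubiquitin editors and feedback genes 3 were called, all higher: Socs1, a suppressor of cytokine signalling (2.78 ± 0.73, adjusted p = 0.048), Zc3h12a, an RNase that degrades cytokine mRNAs (2.48 ± 0.56, adjusted p = 0.022), and the ubiquitin ligase Itch (1.69 ± 0.43, adjusted p = 0.0463). Socs1 stood at -0.15, 0.28, 3.26 and 2.14 in siRNA and at -1.63 to 0.93 in wild-type samples. Zc3h12a stood at 0.60, 0.68, 4.58 and 3.70 in siRNA and at 0.28 to 1.70 in wild-type samples. Both overlap between groups, and only siRNA replicates 3 and 4 exceeded the wild-type range. Itch had values only in replicates 3 and above. None of these 4 genes passed in the pair fit (adjusted p = 0.0962 to 0.255), and of the 3 feedback genes 0 passed with wild-type replicates 1 and 2 realigned.

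Receptors were called in 2 of 18 cases, near the share of all probes and no result about the list. They were Tlr3, the Toll-like receptor for double-stranded RNA, and Il1rap, the co-receptor of interleukin-1. Tlr3 stood at 0.12, 0.28, 5.20 and 4.64 in siRNA and at 1.57, 0.51 and 0.48 in wild-type samples. Only siRNA replicates 3 and 4 exceeded the wild-type range, and replicates 1 and 2 lay below it. The fitted difference, 3.87 ± 0.45 (SE, adjusted p = 0.00096), takes the replicate-set term into account, and it passed in the pair fit (adjusted p = 0.0131). It did not pass without the replicate-set term (1.59, adjusted p = 0.764), with all 14 samples as deposited (1.98, adjusted p = 0.532), or with wild-type replicates 1 and 2 realigned, where siRNA replicates 1 and 2 have a wild-type counterpart (2.28, adjusted p = 0.0752, and 2.38, adjusted p = 0.243, with pairs as a random block in addition). Il1rap differed by 2.78 ± 0.52 (adjusted p = 0.00998, 0.0727 in the pair fit). Its values, -0.48, -0.08, 2.37 and 2.08 in siRNA and 0.11, -1.60 and -1.56 in wild-type samples, overlap between groups. Of 7 tested ligands 0 were called by limma and 1 had an unadjusted p under 0.05, with a median of -0.30.

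The other targets held most of the calls, 10 of 26 genes, all higher, with a median of 1.52, and 7 of them passed in the pair fit. Ccl7, a monocyte chemokine, stood at 4.04, 4.34, 5.17 and 5.69 in siRNA and at -0.41 and -1.59 in wild-type samples, with no value in wild-type replicate 4 (6.26 ± 0.53, SE, adjusted p = 0.000376). Cxcl10, a chemokine of T cells that interferons also induce, stood at 5.76, 6.31, 5.08 and 5.99 in siRNA and at 0.70, 0.36 and 0.05 in wild-type samples (5.37 ± 0.41, adjusted p = 0.000153). Lcn2, which encodes lipocalin-2, stood at 6.20 to 6.88 in siRNA and 0.75 to 1.88 in wild-type samples (4.77 ± 0.54, adjusted p = 0.00109). All 3 were without overlap, and all 3 passed in the pair fit. A second Lcn2 probe differed by 3.30 and did not pass (adjusted p = 0.172).

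In null against wild type 1 gene of the 6 lists was called, Itch (3.18 ± 0.43, SE, adjusted p = 0.0333, 0.225 in the pair fit). It stood at 1.37 and 1.43 in null samples and at -1.86, -1.70 and -1.78 in wild-type samples. The list of other targets had a median of 0.22 there, against 0.27 over all probes, and 0 of 26 were called by limma, with 3 at an unadjusted p under 0.05. In null against siRNA 9 of the 26 were called, all lower in null, with a median of -1.30, where 2.27% of all probes were called lower, and 8 of them passed in the pair fit. In the same comparison 6 of 15 microglia markers were called higher in null, with a median of 1.42, where 3.61% of all probes were. So were Aldoc and Sox9 among 12 astrocyte markers, Sox10 among 7 oligodendrocyte lineage markers and Flt1 among 6 endothelial markers. Gja1, also an astrocyte marker, was called lower (adjusted p = 0.00709, 0.0525 in the pair fit). Of the 10 markers called higher Coro1a, Laptm5 and Aldoc passed in the pair fit, and the part of these markers in the result was not tested. Ccl7 (-5.92 ± 0.44, adjusted p = 0.000309), Cxcl10 (-4.75 ± 0.34, adjusted p = 7.07e-05) and Ccl5, another chemokine of T cells (-4.55 ± 0.49, adjusted p = 0.000663), differed most. Ccl5 stood at 4.69, 4.90, -0.45 and 0.29 in null and at 7.98, 8.76, 4.89 and 6.02 in siRNA samples. Null replicates 1 and 2 were thus well above null replicates 3 and 4 and null replicate 2 reached siRNA replicate 3. Among receptors 3 of 18 were called lower in null, Tlr3 (-2.92), Tlr2, a receptor of bacterial lipoproteins (-1.98), and Il1rap (-1.67). The median of the receptor list was 0.38, in the other direction. Among feedback genes Socs1 (-4.27) and Zc3h12a (-2.41) were called lower, with a list median of -0.078. Of the receptors and feedback genes, Tlr3 alone passed in the pair fit (adjusted p = 0.0282). Tlr3 stood at -2.51, -2.62, 2.82 and 0.87 in null and at 0.12, 0.28, 5.20 and 4.64 in siRNA samples, which overlap. Its call was lost without the replicate-set term, with all 14 samples as deposited, and with wild-type samples realigned plus pairs as a random block. Socs1 had values only in null replicates 3 and 4 (0.11 and -3.24), overlapping with siRNA samples (-0.15 to 3.26).

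**Figure D3:**
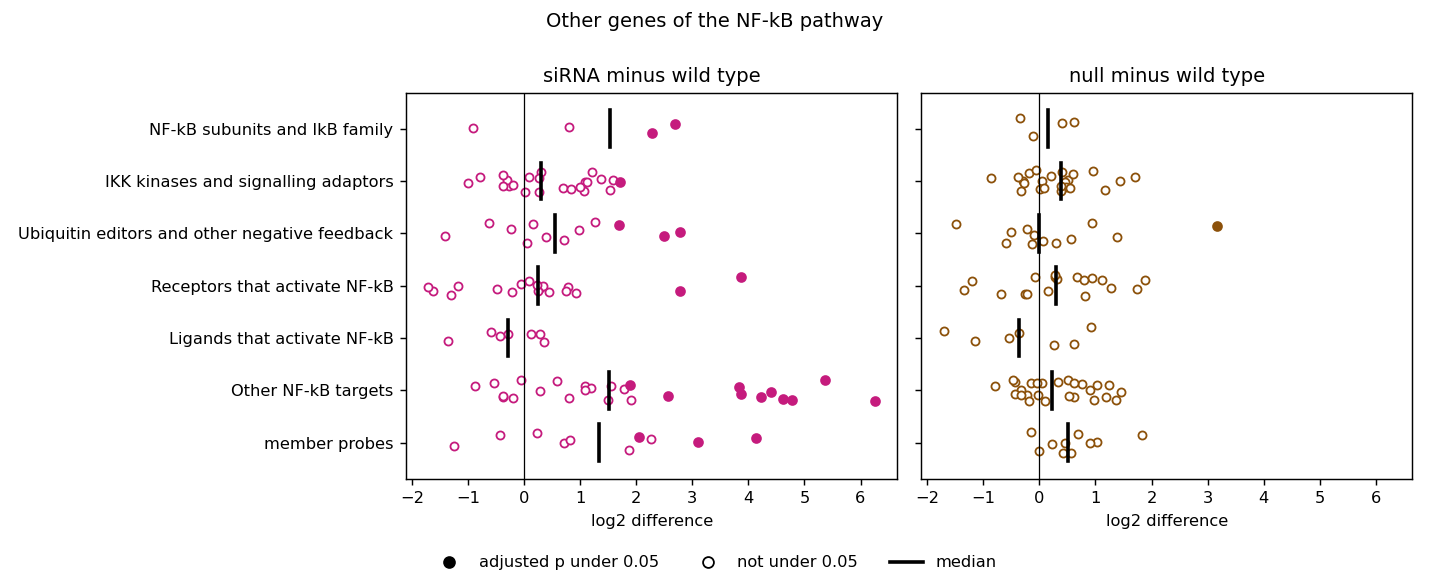
Log2 differences of the tested genes in the 6 pathway lists and of the 10 member probes, for siRNA minus wild type and null minus wild type; each point is 1 gene or member probe, filled where the adjusted p is under 0.05, and the bar is the median (points are spread vertically for legibility). Among other targets 10 of 26 points are filled for siRNA, and Itch is the 1 filled point for null.

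Genes whose centred values over the samples lay nearest to a called member were listed, by the root-mean-square difference over 9304 named probes measured in all 11 samples. For Vcam1 probe 4808 these were Nupl1 (0.37), Cd274 (0.52) and H2-K1 (0.56), while the SD of Vcam1 itself was 1.70. Cd274 encodes the checkpoint ligand PD-L1, H2-K1 a class I histocompatibility molecule and Nupl1 a nucleoporin. For Relb, with an SD of 0.98, they were B3gnt7, a glycosyltransferase (0.22), Nop9 (0.25) and the ubiquitin ligase Rnf8 (0.26). For Vcam1 probe 32780, over 10 samples, they were the galectin gene Lgals3 (0.47), the caveolin gene Cav1 (0.55) and Pnpt1 (0.59). The lists of the 2 Vcam1 probes share no gene.

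**Figure D4:**
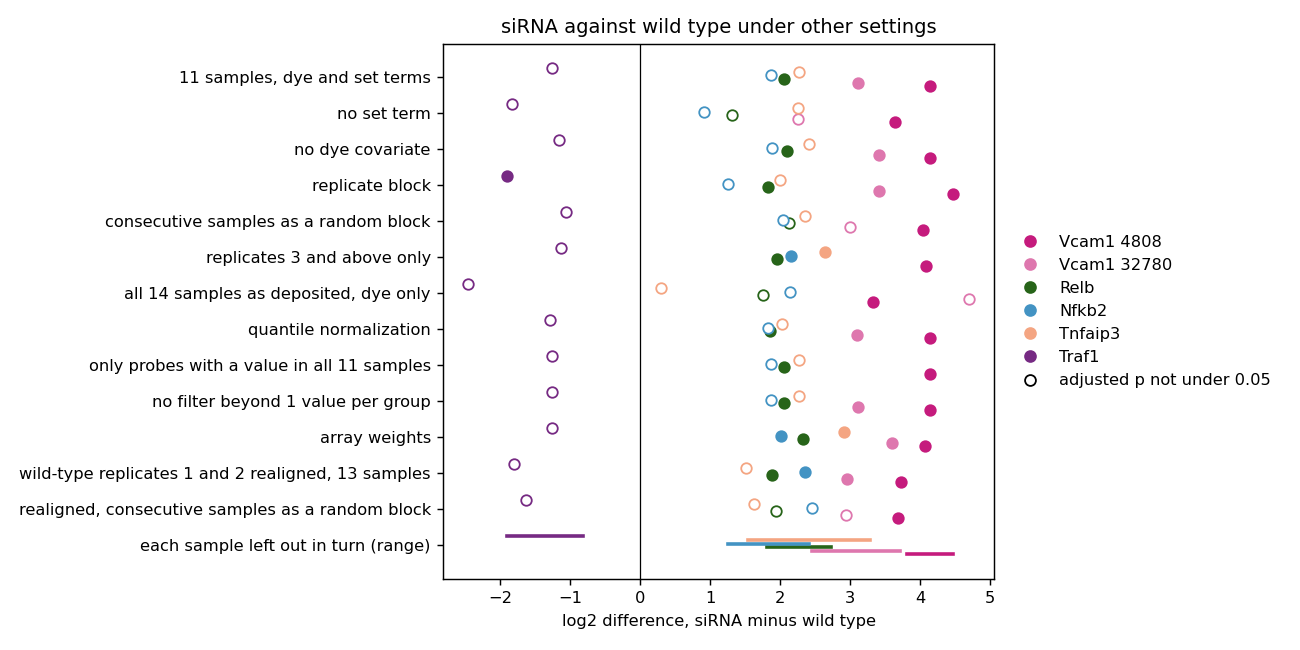
siRNA minus wild type (log2 difference) of 5 members, Vcam1 with both probes, under the fit of 11 samples with dye and replicate-set terms and 12 alternative settings; filled points have an adjusted p under 0.05, and the lines at the bottom span the fits that leave out 1 sample. Vcam1 probe 4808 is filled in every setting, between 3.33 and 4.47, and Relb is filled in 8 of the 12 alternatives.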

How the data were processed

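The authors deposited log2 values, 1 per probe and sample, from spotted oligonucleotide arrays hybridised with RNA (20 ug a sample) carrying Cy3 or Cy5, per the labels' protocols. For the scanner, background correction and normalization no step is stated in the labels or file headers (not given in the sources used here). Each column has a median of 0, also within the 48 print blocks, and missing values carry no reason, so signal over background is unknown and precision is set by how many arrays there are. Among 33600 probes, a single gene symbol was given for 18179, several symbols for 87 and none here for 15334.

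From these values, limma 3.58.1 in R 4.3.3 (lmFit and eBayes) fitted the 11 samples with terms for group, dye and replicate set (replicates 1 and 2 against 3 and above). Probes with at least 2 values per group were tested, two-sided, with Benjamini-Hochberg adjustment over all probes of a contrast, and called at an adjusted p under 0.05. A second model of the 8 null and siRNA samples tested whether their difference depends on the replicate set. The script was tested on simulated data. Changes of log2 1, 2 and 4 between siRNA and wild type were called for 1.5%, 22% and 83% of the changed probes. These were 67, 67 and 66 of 20352 probes, with noise drawn independently for each sample. In the data more probes were called, and consecutive samples had a correlation of 0.44 in the pair fit. The shares therefore describe the simulation and may differ from the recovery in these data. A member that did not pass is thus not shown to be unchanged. Python 3, numpy, pandas and matplotlib made the summaries and figures.

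The members and lists were chosen with earlier results of these data known. Named were all members, Gja1, up to 3 called genes with the largest change per list, contrast and direction, and the 3 genes nearest to each called member. A list gene is its probe with the most values. Replicate numbers were checked by the correlation of deviations from group means: it was 0.565 to 0.647 for the 4 same-numbered null and siRNA pairs, and 0.399 to 0.598 for differently numbered samples of the same replicate set. The numbers were taken to pair them, from the data and not from the labels, although same-numbered samples share the dye as well. Against wild type only numbers 3 and 4 are shared. For the realigned wild-type replicates, 1254 of 1344 block columns had r of 0.5 or more at their new place, 832 of them moved by 1 grid row, and 90 were left out.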

Additional observations from a re-analysis of the deposited data

Results flagged for a closer look

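Birc3 in null replicate 3, at -1.42, lay apart from the other 3 null samples, which stood at -0.65 to -0.55. It was 1 of 19 groups of 4 samples screened among the member probes, and chance alone marks about 1 in 20.

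Tnfaip3 moved in opposite directions in the replicate sets: null minus siRNA was 0.50 in replicates 1 and 2, with both null samples above both siRNA samples, and -1.38 in replicates 3 and 4, with both null samples below. The test of this difference gave 1.88 ± 0.56 (SE, limma adjusted p = 0.0596), which did not pass.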

How the results depend on the processing

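Vcam1 probe 4808 was called for siRNA versus wild type under every alternative run, and for null versus siRNA under all but the 14 samples as deposited. The numbers of probes and of member probes called depended on the setting. Without the replicate-set term, siRNA versus wild type, null versus wild type and null versus siRNA had 66, 0 and 75 called probes, with consecutive samples as a random block 251, 3 and 128, and with all 14 samples as deposited 49, 0 and 19. With wild-type replicates 1 and 2 realigned (chosen after seeing the data) they had 967 (570 higher, 397 lower, against 1104 and 398), 0 and 672, and with the random block in addition 118, 0 and 59. Null versus wild type, with 120 called (3471 at an unadjusted p under 0.05), had 877 in replicates 3 and above, 308 with quantile normalization, 73 with complete probes and 22 with array weights; null versus siRNA had 1893 in replicates 3 and above and 2771 with array weights. Member probes called for siRNA versus wild type were 1 without the set term, with either random block and with 14 samples, and 5 with array weights. For null versus siRNA they were 1 without the set term, with either random block and with complete probes, 0 with 14 samples, and 4 with array weights. For null versus wild type they were 0 in every alternative. The cause of these shifts was not tested.

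With the replicate number as a block, null versus wild type had 390 called probes and null versus siRNA 2382, with 4 member probes. siRNA versus wild type had 1984, with 4 member probes, among them Traf1 lower (-1.90, adjusted p = 0.0172). Only 2 numbers are shared with wild type, so this pairing is not established there. The difference of null minus siRNA by replicate set had 2 member probes called under the block and 2 with complete probes.

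Leaving out each sample in turn gave 225 to 1590 probes and 1 to 4 member probes for siRNA versus wild type, 1 to 223 and 0 for null versus wild type, 305 to 1840 and 1 to 4 for null versus siRNA, and 214 to 5823 and 0 to 5 for the difference by replicate set. Members short of the threshold turned sign. siRNA minus wild type of Icam1 was -0.62 without the set term, -0.022 with the replicate block, -0.12 realigned and -0.050 realigned with the random block. For null minus wild type, Birc3 was 0.19 without the set term, 0.038 with the random block and 0.17 with array weights, and Rela 0.0059 with 14 samples, 0.042 realigned and 0.10 with the random block in addition. Traf1 was -0.16 without the set term, -0.23 with the replicate block, -0.78 with 14 samples and -0.12 realigned, and Nfkb2 -0.72 without the set term, -0.39 with the replicate block and -0.22 in replicates 3 and above. Tnfaip3 was -0.14 with 14 samples and Icam1 -0.28 without the set term. Null minus siRNA in replicates 3 and above was -0.32 for Icam1 and 0.081 for Nfkbia. Without 1 sample, siRNA minus wild type ran from -0.092 to 0.78 for Icam1, -0.79 to 0.092 for Rela and -1.10 to 0.25 for Gja1. Null minus wild type ran from -0.32 to 0.51 for Birc3, -0.39 to 0.83 for Nfkb2, -0.50 to 0.38 for Rela and -0.23 to 0.85 for Traf1, and null minus siRNA from -0.91 to 0.0080 for Tnfaip3.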
